A study of Mus musculus with 8 samples.

Results

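The genes described here are the class I major histocompatibility complex (MHC) presentation genes, in all the cells sorted from each mouse and in the cell clusters those cells form. They are 10 of the 16889 genes in the table of unique molecular identifiers (UMIs, each standing for 1 captured transcript molecule). The 10 genes were picked by role among the genes with a row in that table, with earlier results of these data known. They are the classical heavy chains H2-K1 and H2-D1, the nonclassical heavy chains H2-Q4, H2-Q6, H2-Q7 and H2-T23, the shared light chain B2m, and the peptide loading genes Tap1, Tap2 and Tapbp. Other class I heavy chains with a row, such as H2-T22, H2-Q10 and H2-M3, are not among the 10 and are followed further on. The single-cell RNA sequencing compared 4 control with 4 cKO mice, all female CD98hcΔCX3CR1 mice of 6 to 12 weeks. All 8 mice carried floxed alleles of CD98hc (Slc3a2) and a tamoxifen-inducible Cre recombinase with a yellow fluorescent protein under the promoter of Cx3cr1. Control mice (replicates 1 to 4) received corn oil, and cKO mice (replicates 5 to 8) received 100 µl of tamoxifen at 20 mg/ml in corn oil by intraperitoneal injection on 5 consecutive days. Cells were taken from the colonic lamina propria at day 7, sorted as CD11b+ and CCR2+ or CD64+, and captured in 1 well per mouse. The Cre is active in cells that use the Cx3cr1 promoter, so other sorted cells may keep the gene, and tamoxifen and the deletion cannot be told apart because only cKO mice were given tamoxifen.

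A class I molecule is a heavy chain held together with beta-2 microglobulin and a short peptide, and nearly all nucleated cells show such molecules to CD8 T cells and natural killer cells. Peptides are cut by the proteasome, carried into the endoplasmic reticulum by the TAP transporter and fitted onto the heavy chain with the help of tapasin. Interferons raise transcription of these genes in many cell types, with NLRC5 as a transactivator, and in the gut wall monocytes, macrophages and dendritic cells are among the cells that present antigen.

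After filtering, 3213 of 5947 cell barcodes were kept, 1863 from control and 1350 from cKO mice, with 497531 to 3762314 UMIs per mouse and medians of 4149 to 5538 UMIs per cell. Control replicate 3 (85 cells) and cKO replicate 5 (83 cells) were small, and the other 6 mice had 349 to 724 cells. Of the cells of cKO replicate 5, 28.9% were called doublets, against at most 5.88% in any other mouse, and 8 of the kept barcodes occurred in more than 1 well. Slc3a2 was at 337 ± 117 UMIs per 1000000 (CPM) in control and 320 ± 27.9 CPM in cKO mice (SD, n = 4 each; log2 fold change 0.02, adjusted p = 0.976 by edgeR). The excised exon 3 lies away from the 3′ end that was sequenced, so this level checks nothing about the deletion. Of the sets of markers, the monocyte list was higher in cKO mice (7 of 9 genes called, 1643 to 3358 CPM in control and 7091 to 10460 CPM in cKO mice) and the dendritic cell list lower (9 of 12 called, 1242 to 1538 CPM and 496 to 621 CPM), with no marker of either list at 0. The lymphoid list, which the gate should have left out, reached 132 to 8804 CPM in control and 4285 to 12970 CPM in cKO mice (1 of 9 tested genes called higher, 1 of 13 listed markers at 0 or not in the table). Macrophage markers were at 5755 to 9808 CPM in control and 4581 to 6321 CPM in cKO mice (1 of 14 called lower, none at 0).

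The promoters of the heavy chain genes are shown first because 5 of them share letters that few other genes carry. RefSeq promoter windows (GRCm38.p6, 250 bases before to 50 after the gene start) were found for 9 of the 10 genes, with 2 windows for H2-K1 and none for Tap2. Before the gene start, the windows of H2-K1, H2-D1, H2-Q4, H2-Q6 and H2-Q7 had 2 runs of at least 12 letters in common. In the sequences printed here in the direction of transcription, capitals mark these runs and, between them, the letters GGGGATT, with which the NF-kB site of class I promoters begins. The H2-K1 stretch lies on chr17:34000406-34000521 (minus strand), H2-Q4 on chr17:35379396-35379495, H2-Q6 on chr17:35424614-35424729 and H2-Q7 on chr17:35438959-35439073 (all plus strand). For H2-D1, 30 bases around the later run are shown (chr17:35262934-35262963, plus strand), since a longer transcript in the GENCODE annotation covers that place.
H2-K1: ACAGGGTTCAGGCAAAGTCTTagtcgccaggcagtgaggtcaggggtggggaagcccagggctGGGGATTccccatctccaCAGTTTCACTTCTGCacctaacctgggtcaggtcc
H2-D1: atctcctCAGTTTCACTTCTGCacctaacc
H2-Q4: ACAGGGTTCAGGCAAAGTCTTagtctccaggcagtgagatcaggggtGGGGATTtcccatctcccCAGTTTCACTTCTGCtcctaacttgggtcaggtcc
H2-Q6: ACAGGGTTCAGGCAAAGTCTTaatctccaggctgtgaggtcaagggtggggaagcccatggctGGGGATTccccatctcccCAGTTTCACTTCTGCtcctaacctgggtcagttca
H2-Q7: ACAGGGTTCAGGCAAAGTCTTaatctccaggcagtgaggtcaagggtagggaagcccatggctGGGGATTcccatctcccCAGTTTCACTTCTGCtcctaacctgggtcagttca

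Searched on both strands, the earlier run ACAGGGTTCAGGCAAAGTCTT was in 0.0183% of all 32851 promoter windows and in no gene but these 5. The later run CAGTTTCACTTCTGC was in 0.0213% of windows, those of the same 5 genes and of H2-Q10, another class I heavy chain. It starts 93, 153, 156, 155 and 116 bases before the gene start in H2-K1, H2-D1, H2-Q4, H2-Q6 and H2-Q7. The letters GGGGATT were in 3.1% of windows (964 genes). These motifs were picked after the windows had been seen, and a match describes letters only. B2m and H2-T23 had neither run. Both held the letters GAAANNGAA, from the core of the interferon-stimulated response element, which are in 8.56% of all windows. Only this spelling was searched, so other forms of the element were not looked for. The later run of the heavy chain genes was not checked against such forms. Capitals mark these letters in the B2m stretch on chr2:122147514-122147606 (plus strand) and in 30 bases of H2-T23 on chr17:36032805-36032834 (minus strand), where they read on the opposite strand.
B2m: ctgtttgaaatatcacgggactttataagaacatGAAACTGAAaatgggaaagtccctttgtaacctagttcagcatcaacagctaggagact
H2-T23: tcctactgctTTCTCTTTCataaagacaca

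In the summed sorted cells of a mouse, 6 of the 10 class I genes were higher in cKO mice, 4 were not called and none was lower. The 6 were H2-K1, H2-D1, H2-Q4, H2-Q6, H2-Q7 and B2m, and H2-T23 and the 3 loading genes Tap1, Tap2 and Tapbp did not pass the test. Over the 11387 genes tested, 2.99% were called higher, 1.48% lower and 4.48% either way. The median log2 fold change was 0.65 over the 10 genes and -0.03 over all genes. UMIs were summed per mouse and compared with edgeR's quasi-likelihood test, adjusted by Benjamini-Hochberg over all genes at 0.05. In such sums, fewer cells of a type and less RNA per cell cannot be told apart.

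The classical heavy chain H2-K1 (chr17:33996017-34000347) presents peptides to CD8 T cells. Its gene body, like those that follow, is given on GRCm38 from the GENCODE M21 annotation. It was at 875, 1003, 1025 and 943 CPM in control replicates 1 to 4 and at 1562, 1256, 1506 and 1460 CPM in cKO replicates 5 to 8. Every cKO mouse was above every control mouse, and the means were 961 ± 67.5 and 1446 ± 133 CPM (SD, n = 4). H2-K1 rose 1.61-fold (log2 fold change 0.68, SE 0.13, adjusted p = 0.0149 by edgeR). H2-D1 (chr17:35262730-35267499), the other classical heavy chain, was at 2509, 2591, 1942 and 2540 CPM in control and 3101, 3163, 3864 and 3502 CPM in cKO mice. Its groups did not overlap either, although control replicate 3 lay well under the other controls. H2-D1 rose 1.52-fold (log2 fold change 0.61, SE 0.14, adjusted p = 0.0316 by edgeR). The H2-K1 call was lost without control replicate 1 or 2 (adjusted p = 0.0613 and 0.0581 by edgeR), and the H2-D1 call without any 1 of 5 mice (control replicates 1 and 2 and cKO replicates 6, 7 and 8; largest adjusted p = 0.096).

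The nonclassical genes of the Q region had larger fold changes than the classical ones, from lower levels in control mice. H2-Q4 (chr17:35379617-35385290) was at 41.7, 45.3, 91.7 and 70.7 CPM in control and 199, 117, 105 and 140 CPM in cKO mice. The lowest cKO mouse was still above the highest control mouse, and cKO replicate 5 stood well above the rest. H2-Q4 rose 2.45-fold (log2 fold change 1.29, SE 0.27, adjusted p = 0.0218 by edgeR), a call lost without control replicate 1 or 2 or cKO replicate 8 (adjusted p = 0.0538 to 0.0883). H2-Q6 (chr17:35424850-35430055) was at 21.5, 36.1, 52.6 and 36.3 CPM in control and 115, 93.7, 91.3 and 93.2 CPM in cKO mice. With a 2.997-fold rise (log2 fold change 1.58, SE 0.23, adjusted p = 0.00403 by edgeR) it had the largest change of the 10 genes. H2-Q7 (chr17:35439155-35443773), a heavy chain of the Qa-2 type, was at 85.9, 96.0, 121 and 129 CPM in control mice. In cKO mice it was at 267, 257, 307 and 266 CPM, each of them above every control mouse. H2-Q7 rose 2.74-fold (log2 fold change 1.45, SE 0.17, adjusted p = 0.000885 by edgeR). H2-Q6 and H2-Q7 remained called when any 1 mouse was left out (largest adjusted p = 0.0224 and 0.00597).

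H2-T23 (chr17:36029773-36032855) encodes Qa-1b, a nonclassical molecule recognised by receptors of natural killer and T cells. It was at 182, 180, 117 and 215 CPM in control and 279, 141, 181 and 244 CPM in cKO mice. The groups overlapped over most of their range, and the log2 fold change of 0.35 (SE 0.22) did not pass the test (adjusted p = 0.403 by edgeR). The light chain gene B2m (chr2:122147686-122153083) was at 4644, 4687, 3739 and 5717 CPM in control and 7793, 8199, 9850 and 9345 CPM in cKO mice. All 4 cKO mice lay above the highest control mouse, with means of 4697 ± 809 and 8797 ± 962 CPM (SD, n = 4). B2m rose 2.01-fold (log2 fold change 1.005, SE 0.15, adjusted p = 0.00471 by edgeR) and remained called without any 1 mouse (largest adjusted p = 0.0261).

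Of the loading genes, none passed the test. Tap1 (chr17:34187553-34197225), a subunit of the peptide transporter, was at 158, 168, 148 and 164 CPM in control and 129, 144, 169 and 167 CPM in cKO mice. Its groups overlapped almost completely, with a log2 fold change of 0.04 (SE 0.14, adjusted p = 0.909 by edgeR) that turned to -0.06 when library sizes alone set the scale. Over all 15 alternatives the value ranged from -0.058 to 0.339, and none of them called Tap1. Tap2 (chr17:34203527-34216321), the partner subunit, was at 128, 161, 134 and 142 CPM in control and 109, 126, 96.5 and 106 CPM in cKO mice. It is the single class I gene whose cKO values all lay below the controls in CPM. That separation was gone after TMM scaling, and the log2 fold change of -0.28 (SE 0.14) did not pass the test (adjusted p = 0.295 by edgeR). Tapbp (chr17:33915899-33929292), which encodes tapasin, was at 197, 206, 160 and 238 CPM in control and 241, 197, 242 and 210 CPM in cKO mice. The overlapping groups gave a log2 fold change of 0.24 (SE 0.15, adjusted p = 0.402 by edgeR).

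Across the table, every cKO mouse was above every control mouse for 4% of the genes tested in CPM and for 5.85% after TMM scaling, and below for 8.34% and 6.11%. The 6 called class I genes were separated upward on both scales. In the cells of clusters 1, 3, 4, 5 and 6 alone (monocyte-like and macrophage-like cells and 3 unnamed clusters led by Cebpb, by Saa3 and by Ccl8 and Pf4, all described further on, without dendritic cell-like, Gzmb and Cd3g, stromal-like and lymphoid-like cells), 4 of the 10 genes were called, H2-Q4, H2-Q6, H2-Q7 and B2m. H2-K1 and H2-D1 then had log2 fold changes of 0.49 and 0.46 (adjusted p = 0.0899 and 0.128 by edgeR). Without cells called doublets, 5 genes were called and H2-D1 was not (adjusted p = 0.0684). With library sizes alone, 5 were called, again without H2-D1 (adjusted p = 0.0582), and the median log2 fold change of all genes moved from -0.03 to -0.14. Under that scaling 50.8% of all calls were higher in cKO mice (270 higher and 261 lower), against 66.9% with TMM (341 and 169).

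**Figure D1:**
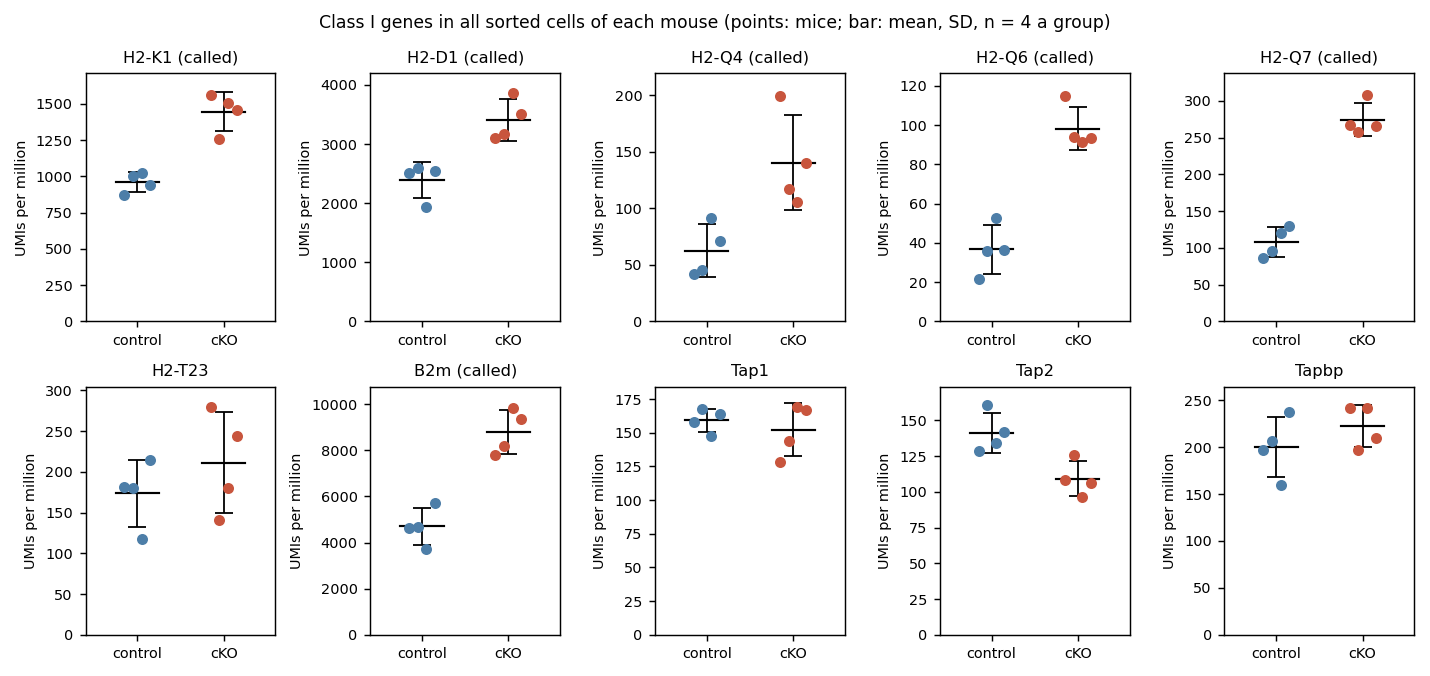
UMIs per 1000000 of each class I gene in all sorted cells, with 1 point per mouse, the mean and the SD (n = 4 control and 4 cKO mice). The 6 genes marked as called have all cKO points above all control points, as for B2m (3739 to 5717 CPM in control, 7793 to 9850 CPM in cKO mice), while H2-T23, Tap1 and Tapbp overlap and Tap2 lies lower in cKO mice without passing the test.

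As a share of all UMIs, the 6 heavy chain genes held 0.335% to 0.395% in control and 0.503% to 0.606% in cKO mice, and B2m alone held 0.374% to 0.572% and 0.779% to 0.985%. The 10 genes together took up 0.753% to 1.02% of the UMIs of a control mouse and 1.37% to 1.64% of those of a cKO mouse. These shares come from the same counts as the tests and show how unequal the genes were in the total.

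Within a mouse, the genes were also set against the classical heavy chains, as the UMIs of each gene per UMI of H2-K1 and H2-D1 together. For B2m this ratio was 1.26 to 1.64 in control and 1.67 to 1.88 in cKO mice (means 1.40 ± 0.171 and 1.81 ± 0.0953, SD, n = 4). For Tap1 it was 0.0466 to 0.0498 in control and 0.0276 to 0.0337 in cKO mice, and for Tap2 0.0379 to 0.0452 and 0.0180 to 0.0285. None of these ranges overlapped, with more B2m and less Tap1 and Tap2 per classical heavy chain over all sorted cells of cKO mice. H2-Q7 per classical heavy chain was 0.0254 to 0.0406 in control and 0.0535 to 0.0581 in cKO mice, and Tapbp 0.0538 to 0.0682 and 0.0423 to 0.0517. In contrast, H2-K1 per H2-D1 had overlapping ranges of 0.349 to 0.528 and 0.390 to 0.504. The ratios share their counts with the tests and are given as a description. Over all sorted cells these genes did not move by 1 common factor, which does not mean that any of them stayed constant. The mix of cell types differed as well. A dendritic cell-like cluster, described further on, gave 58.1% of all Tap1 UMIs in control and 20.6% in cKO mice. What part this mix has in the ratios was not tested, and no ratios were formed within clusters.

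**Figure D2:**
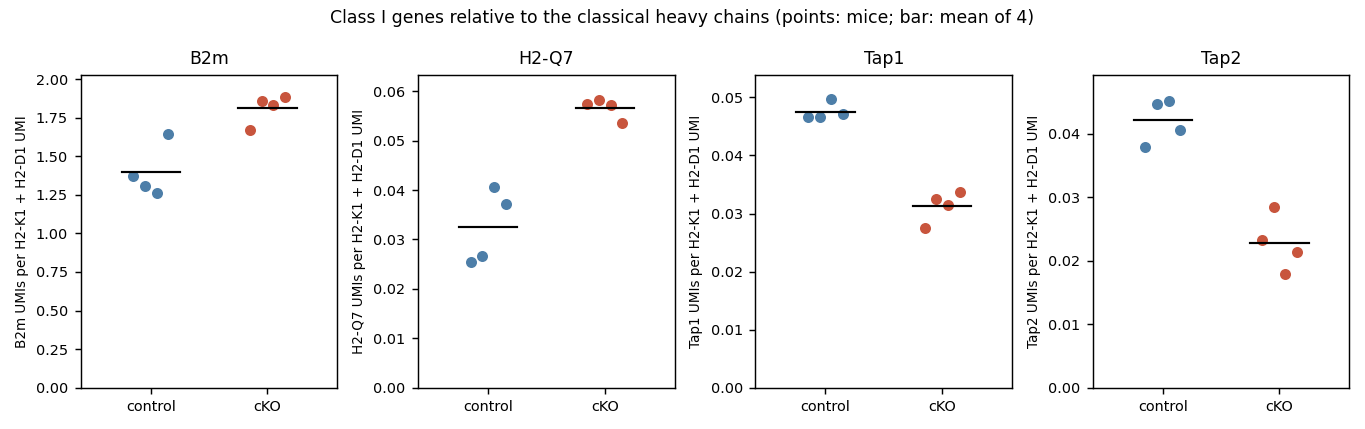
UMIs of B2m, H2-Q7, Tap1 and Tap2 per UMI of H2-K1 and H2-D1 in all sorted cells, with 1 point per mouse and a bar at the mean (n = 4 control and 4 cKO mice). The B2m and H2-Q7 points of cKO mice lie above all control points, and those of Tap1 (0.0276 to 0.0337) and Tap2 (0.0180 to 0.0285) below all control points. The mix of cell types differs between the groups, and its part in the ratios was not tested.

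The share of cells with at least 1 UMI was compared after thinning each cell to 1000 UMIs, which left 3035 cells and left out 99 control and 79 cKO cells of fewer UMIs. H2-Q7 was then found in 8.01% to 12.2% of cells in control mice and 23.1% to 25.5% in cKO mice, with unthinned means of 34.95% and 61.7%. H2-Q6 was found in 1.80% to 4.53% and 8.95% to 12.1% (unthinned means 15.2% and 32.9%), and H2-Q4 in 4.53% to 8.87% and 10.1% to 18.3% (26.9% and 42.8%). After thinning, all 3 genes were thus seen in a larger share of cells in every cKO mouse than in any control mouse. Without thinning the H2-Q4 groups overlapped, with 38.8% in control replicate 3 against 35.2% and 35.3% in cKO replicates 6 and 7. H2-K1 was found in a mean of 59.1% of cells in control and 73.0% in cKO mice, H2-D1 in 86.3% and 92.3%, and B2m in 96.2% and 99.4%. H2-T23 (15.9% and 18.5%), Tap1 (12.2% and 12.6%), Tap2 (10.8% and 9.61%) and Tapbp (16.4% and 18.3%) had close means. Class I genes are used by nearly all nucleated cells, so no cell type served as a negative and the share that free RNA alone would give could not be set beside these values.

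Clustering divided the cells into 9 clusters, and these genes were left out of the clustering. Cluster 1 (720 cells) was monocyte-like, led by Chil3, Ly6c2, Mgst1, Hp and F13a1, and cluster 2 (515 cells) dendritic cell-like, with Cd209a, Xcr1, Itgae and Flt3. Cluster 4 (480 cells) was macrophage-like, led by Ms4a7, Fcrls, C1qc and C1qa, cluster 8 (86 cells) stromal-like, led by Dcn and Col3a1, and cluster 9 (59 cells) lymphoid-like, led by Jchain, Mzb1 and Cd79a. Clusters 3 (480 cells), 5 (480 cells), 6 (268 cells) and 7 (125 cells) had too few listed markers among their 10 leading genes for a name. They are called by leading genes, Cebpb, Saa3, Ccl8 with Pf4, and Gzmb with Cd3g. Cluster 6 had the macrophage markers Pf4 and Fcrls among its leading genes. Its summed macrophage markers in control cells were at 29841 CPM, against 26800 CPM in cluster 4. Cluster 7 was led by T cell genes, with Cd3g, Cd3d and Icos among them. Cells of the Cebpb cluster had a median UMI count of 0.406, and those of the Ccl8 and Pf4 cluster of 0.236, of the median of their own mouse. For the Gzmb and Cd3g cluster this value was 0.541, and for dendritic cell-like cells 1.81. Monocyte-like cells were 11.8% to 20.7% of the cells of a control mouse and 18.1% to 33.3% of those of a cKO mouse, dendritic cell-like cells 19.9% to 27.3% and 4.55% to 9.91%, and macrophage-like cells 7.83% to 29.3% and 5.58% to 13.3%. The monocyte-like cluster gave 18.3% of all B2m UMIs in control and 36.2% in cKO mice, and the dendritic cell-like cluster 25% and 6.05%. Of all Tap1 UMIs, the dendritic cell-like cluster gave 58.1% in control and 20.6% in cKO mice, and the monocyte-like cluster 10.9% and 33.2%. The part of these shares in the differences over all cells was not tested.

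Levels across clusters were read in control mice with at least 20 cells of a cluster, over the 7 clusters with at least 2 such mice. These levels are shares of UMIs. Since the clusters differ in UMIs per cell, the order of molecules per cell can be another, and it was not worked out. For 7 of the 10 genes the mean level was highest in the Gzmb and Cd3g cluster, which rests on control replicates 2 and 4 (22 and 20 cells). There H2-K1 was at 2605 ± 181 CPM (SD, n = 2), against 1173 ± 163 CPM (n = 3) in macrophage-like cells, the next in order, and 711 ± 62.3 CPM (n = 4) in dendritic cell-like cells, the lowest. The mice of the Gzmb and Cd3g cluster lay apart from those of every other cluster for H2-K1, while each further pair of neighbours in the H2-K1 order overlapped. H2-D1 ran from 4808 ± 303 CPM in that cluster over 3164 ± 166 CPM in monocyte-like, 2940 ± 250 CPM in macrophage-like and 2625 ± 104 CPM in Saa3 cells to 1868 ± 295 CPM in the Cebpb cluster. Monocyte-like and macrophage-like mice overlapped for H2-D1, and so did the 3 lowest clusters (6, 2 and 3).

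Leaving out H2-Q4 and H2-Q6, H2-Q7 differed most between clusters. Its highest mean was 9.42 times its lowest, against 3.67 for H2-K1, 2.57 for H2-D1, 3.35 for H2-T23, 2.77 for B2m, 3.84 for Tap1, 4.25 for Tap2 and 1.72 for Tapbp. H2-Q7 was at 660 ± 112 CPM in the Gzmb and Cd3g cluster and between 70.0 and 111 CPM in the other 6, whose neighbours all overlapped. H2-Q4 was at 228 ± 32.7 CPM there and between 10.7 and 61.3 CPM elsewhere, the lowest value resting on 3 UMIs of control replicate 1 in the Ccl8 and Pf4 cluster with the other 2 mice at 0, and H2-Q6 at 197 ± 182 CPM, with 325 CPM in control replicate 2 and 68.3 CPM in control replicate 4, so that no ratio is given for these 2 genes. H2-T23 was highest there too (242 ± 92.0 CPM) but overlapped with macrophage-like cells (223 ± 39.5 CPM), and was lowest in the Ccl8 and Pf4 cluster (72.4 ± 17.4 CPM). B2m ran from 8445 ± 35.6 CPM in the Gzmb and Cd3g cluster, with overlaps between all neighbours down to the Cebpb cluster (4842 ± 790 CPM), to dendritic cell-like cells at 3047 ± 547 CPM, which lay apart.

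The loading genes had another order. As shares of UMIs, Tap1, Tap2 and Tapbp were highest in dendritic cell-like cells, at 232 ± 30.4, 197 ± 19.3 and 223 ± 31.0 CPM (SD, n = 4). The shares of H2-K1 and B2m were lowest in these cells, which had the most UMIs per cell. For all 3 genes these values overlapped with those of the next, the Gzmb and Cd3g cluster. Tap1 and Tap2 were lowest in the Ccl8 and Pf4 cluster (60.6 ± 14.5 and 46.4 ± 26.4 CPM, n = 3), and Tapbp in the Cebpb cluster (129 ± 61.4 CPM, n = 4), both clusters of low UMI counts. The stromal-like and lymphoid-like clusters had 1 and no control mouse of 20 cells and are not in this order. In the Jchain-led lymphoid-like cluster the pooled B2m level was 9199 CPM in 31 control cells (95% exact Poisson interval 8806 to 9605) and 19490 CPM in 28 cKO cells (18920 to 20070), intervals that cover counting error only.

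**Figure D3:**
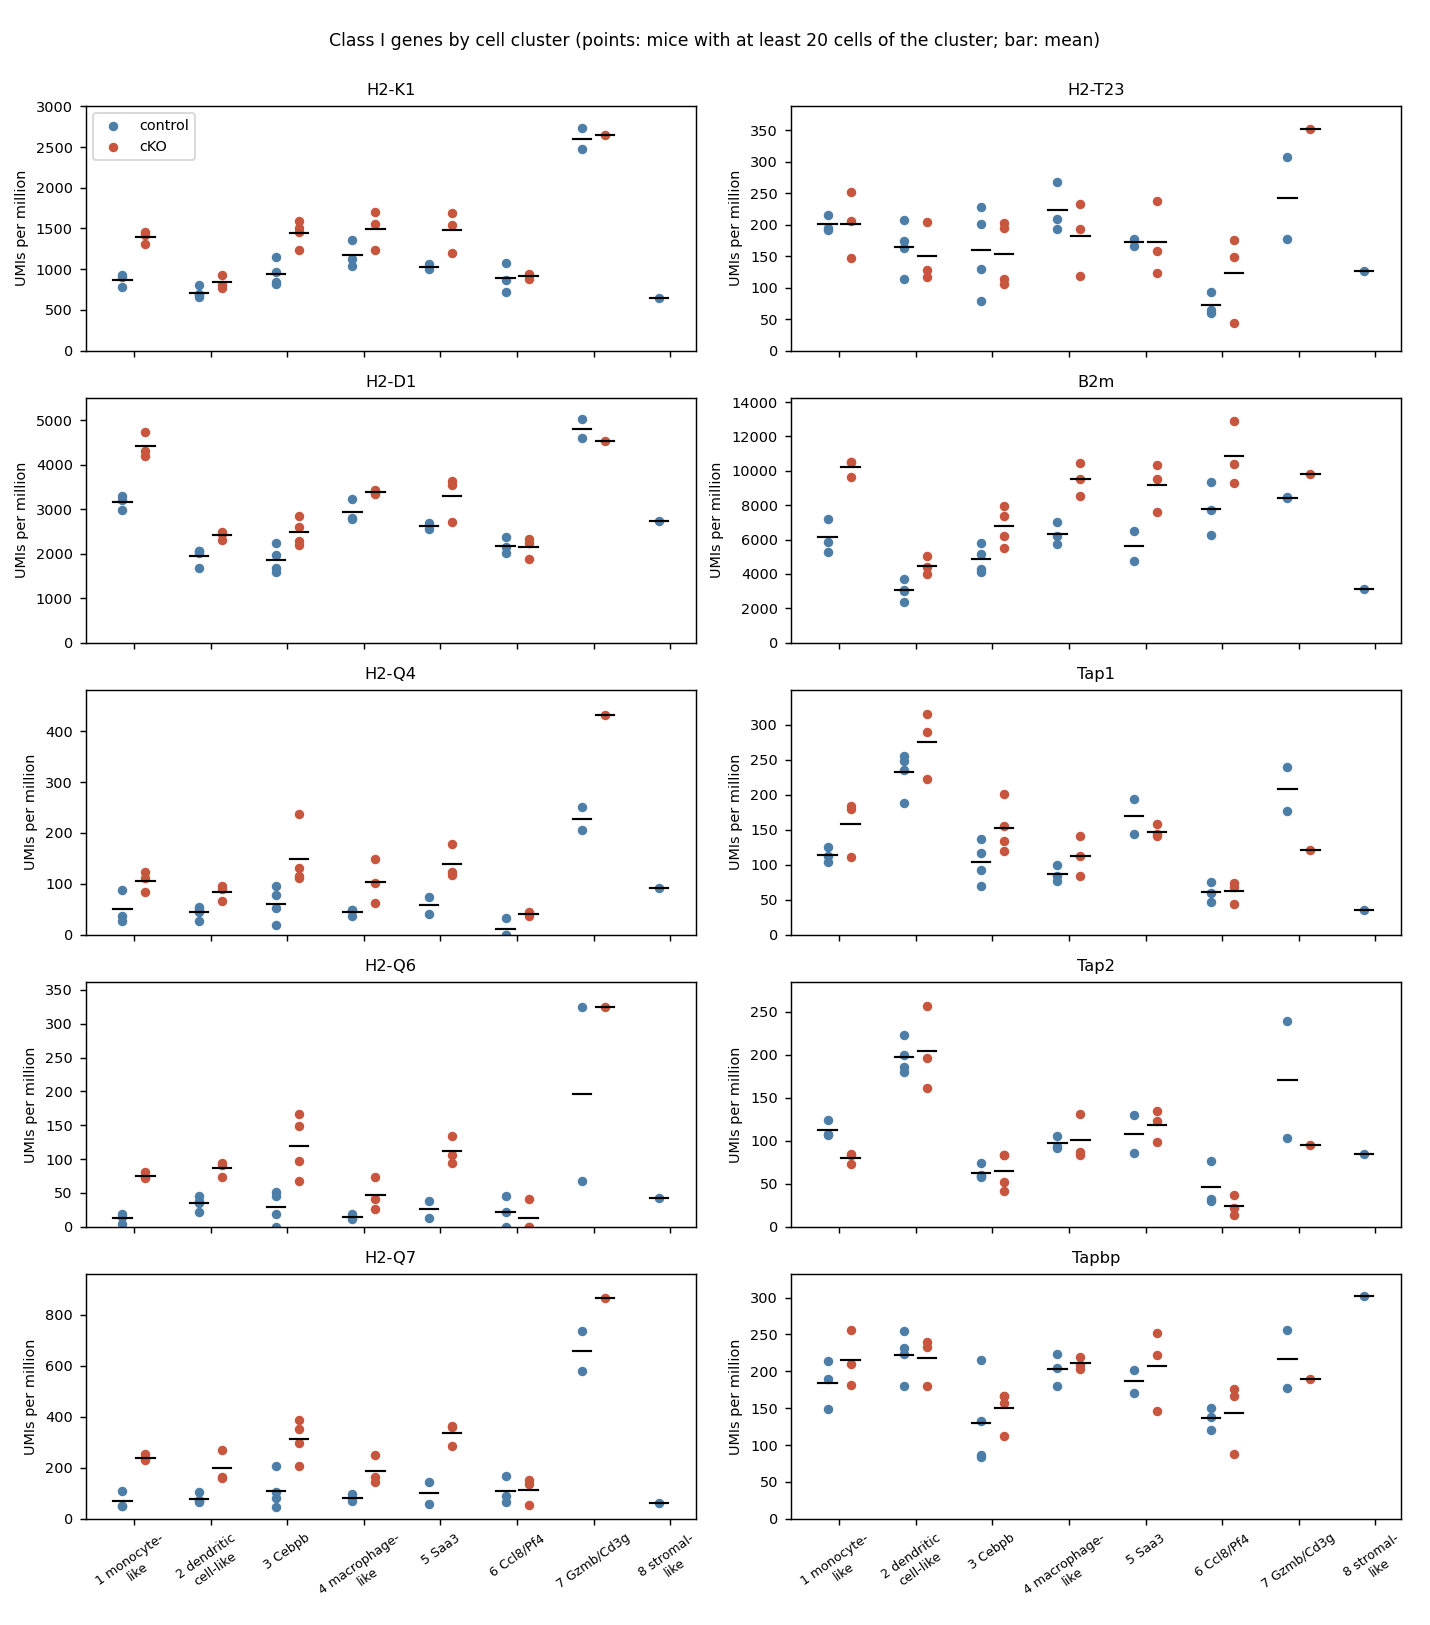
UMIs per 1000000 of each class I gene in 8 clusters, with 1 point per mouse that has at least 20 cells of the cluster, control beside cKO, and a bar at the mean. Among control mice, the Gzmb and Cd3g cluster stands above the others for the heavy chains other than H2-T23, where it overlaps (mean H2-K1 2605 CPM). The cKO points of other clusters reach its range for H2-D1, H2-Q4 and H2-Q6. For H2-D1, its cKO mouse is at 4527 CPM and monocyte-like cKO mice at 4207 to 4737 CPM. The dendritic cell-like cluster has the highest control means of Tap1 and Tap2 (232 and 197 CPM).

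Within clusters, the cKO effect was tested in the 6 clusters with enough mice, in 38 sums of a mouse and a cluster and over 10721 genes. Of the 60 pairs of a gene and a cluster, 8 were called, all higher in cKO mice. They belonged to H2-Q6 and H2-Q7 in monocyte-like, Cebpb and Saa3 cells and to H2-K1 and B2m in monocyte-like cells. In monocyte-like cells 4 of the 10 genes were called, where 0.886% of all genes were called higher and 0.466% lower. In the Cebpb cluster 2 of 10 were called (0.597% of genes higher, 0.121% lower), as were 2 of 10 in the Saa3 cluster (0.569% higher, 0.177% lower). No class I gene was called in dendritic cell-like cells (0.289% of genes higher, 0.0187% lower), macrophage-like cells (0.494% and 0.149%) or the Ccl8 and Pf4 cluster (0.0746% and 0.00933%). This fit treats several sums of a mouse as independent. With each cluster fitted alone 12 pairs were called, 4 of them in macrophage-like cells (H2-Q4, H2-Q6, H2-Q7 and B2m) and none in dendritic cell-like cells. Limma-voom with a random term for the mouse called 15 pairs, with B2m in macrophage-like and H2-Q7 in dendritic cell-like cells among them. Calls over all genes, summed over the clusters, rose as well, from 413 in the main fit to 568 with each cluster fitted alone and 584 with limma-voom. For H2-T23, Tap1, Tap2 and Tapbp 0 of 24 pairs were called by edgeR, and 2 of the 24 had an unadjusted p under 0.05. These were Tap1 and Tap2 in monocyte-like cells, with log2 fold changes of 0.52 and -0.45 (adjusted p = 0.407 and 0.48 by edgeR).

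In monocyte-like cells of control replicates 1, 2 and 4, H2-Q6 was at 4.46, 14.997 and 19.6 CPM. In cKO replicates 6, 7 and 8 it was at 80.9, 71.7 and 73.4 CPM, far above every control. H2-Q6 rose there with a log2 fold change of 2.64 (SE 0.45, adjusted p = 0.00011 by edgeR). H2-Q7 was at 49.1, 49.99 and 111 CPM in control and 239, 253 and 230 CPM in cKO mice, again without overlap (log2 fold change 1.83, SE 0.32, adjusted p = 0.000157). H2-K1 was at 780, 930 and 899 CPM in control and 1312, 1418 and 1454 CPM in cKO mice (log2 fold change 0.71, SE 0.18, adjusted p = 0.0226). B2m was at 5295, 5864 and 7205 CPM in control and 9615, 10534 and 10540 CPM in cKO mice (log2 fold change 0.78, SE 0.19, adjusted p = 0.019). H2-Q6 and H2-Q7 remained called in monocyte-like cells without any 1 mouse, whereas H2-K1 and B2m were lost without control replicate 1 or 2 or cKO replicate 7 or 8 (largest adjusted p = 0.216 and 0.182 by edgeR). The H2-K1 call was also lost without a filter on low counts (adjusted p = 0.0779 by edgeR), and that of B2m with graph clustering (0.0771). H2-D1 and H2-Q4 had log2 fold changes of 0.51 and 1.13 there and did not pass the test (adjusted p = 0.144 and 0.0714 by edgeR).

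In the Cebpb cluster, H2-Q6 was at 0, 18.6, 52.0 and 45.7 CPM in control and 167, 96.8, 149 and 67.2 CPM in cKO mice (log2 fold change 2.101, SE 0.49, adjusted p = 0.0148 by edgeR). H2-Q7 was at 47.5, 83.5, 104 and 209 CPM in control and 297, 207, 352 and 388 CPM in cKO mice, where control replicate 4 reached the lowest cKO mouse (log2 fold change 1.48, SE 0.32, adjusted p = 0.00715). The H2-Q6 call was lost without control replicate 1 or 2 or cKO replicate 5 or 7 (adjusted p = 0.0667 to 0.196 by edgeR) and when each cluster was fitted alone (0.0575), and the H2-Q7 call without control replicate 1 or cKO replicate 7 or 8 (0.0541 to 0.106). Both were lost when the clusters were built on all genes (adjusted p = 0.847 and 0.875) or 12 clusters were formed (0.177 and 0.579). In the Saa3 cluster, only control replicates 1 and 4 had enough cells, with 13.7 and 37.6 CPM of H2-Q6 and 58.1 and 144 CPM of H2-Q7. The cKO replicates 6, 7 and 8 had 94.8, 106 and 134 CPM of H2-Q6 (log2 fold change 1.996, SE 0.44, adjusted p = 0.00949 by edgeR). Their H2-Q7 was at 284, 360 and 363 CPM (log2 fold change 1.71, SE 0.35, adjusted p = 0.00392), and both calls were lost without control replicate 1 (adjusted p = 0.153 and 0.192), that of H2-Q6 also without cKO replicate 7 (0.0899). Without control replicate 1 a single control mouse is left in this cluster, which is then assumed to vary like the sums of the other clusters.

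In dendritic cell-like cells the 5 genes H2-D1, H2-Q4, H2-Q6, H2-Q7 and B2m had every cKO mouse above every control mouse, without any of them passing the test. H2-Q7 came closest, with 65.8 to 106 CPM in 4 control and 161 to 272 CPM in 3 cKO mice (log2 fold change 1.18, SE 0.30, adjusted p = 0.0658 by edgeR). H2-K1 overlapped in these cells (656 to 800 CPM and 769 to 932 CPM, log2 fold change 0.12). In macrophage-like cells the same 5 genes were separated, with H2-Q6 at 11.01 to 18.8 CPM in control and 26.1 to 74.1 CPM in cKO mice (log2 fold change 1.57, SE 0.49, adjusted p = 0.16 by edgeR). B2m was at 5738 to 7021 CPM and 8527 to 10470 CPM in macrophage-like cells (log2 fold change 0.49, SE 0.19, adjusted p = 0.373). In the Ccl8 and Pf4 cluster, whose H2-Q6 and H2-Q4 rest on 8 and 10 UMIs, differences of these 2 genes could not be detected at this depth. The Gzmb and Cd3g cluster, where the heavy chains were highest, had too few cells for the test, with 17 to 27 cells in each of 3 control (replicates 1, 2 and 4) and 3 cKO mice (replicates 6, 7 and 8). In these 6 mice H2-K1 was at 2476 to 2769 CPM in control and 2649 to 2758 CPM in cKO mice, and H2-Q7 at 581 to 1207 CPM and 865 to 1079 CPM, so that the groups overlapped. B2m was at 8051 to 8471 CPM in control and 9413 to 11415 CPM in cKO mice there, without overlap. The share of all genes separated in this way was not counted for this cluster, so the B2m values are a description only.

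Counted over the 6 clusters, H2-Q4 and H2-Q6 were above the controls in every cKO mouse in 5, H2-D1, H2-Q7 and B2m in 4 and H2-K1 in 3, and H2-T23, Tap1, Tap2 and Tapbp in none. The Ccl8 and Pf4 cluster is 1 of the 5 for H2-Q4, on 10 UMIs. Tap2 lay below the controls in every cKO mouse in monocyte-like cells, at 107 to 124 CPM in control and 73.4 to 85 CPM in cKO mice, the 1 downward separation among the 60 pairs. By cluster, 5 of the 10 genes were separated upward in monocyte-like cells (8.17% of all genes), 5 in dendritic cell-like cells (3.52%), 3 in the Cebpb cluster (2.19%), 5 in macrophage-like cells (7.37%), 6 in the Saa3 cluster (9.25%) and 1 in the Ccl8 and Pf4 cluster (2.96%). The median log2 fold change of the 10 genes was 0.62 in monocyte-like, 0.16 in dendritic cell-like, 0.48 in Cebpb, 0.28 in macrophage-like, 0.49 in Saa3 and 0.11 in Ccl8 and Pf4 cells. Over all genes it was between -0.13 and 0 in these clusters. Whether the effect differed between clusters was tested against macrophage-like cells, and 0 of 50 differences of a class I gene were called by edgeR, none of them with an unadjusted p under 0.05 (smallest unadjusted p = 0.0552 by edgeR) and none by limma-voom. Of all genes, 0.0373% were called for monocyte-like cells, 0.028% for dendritic cell-like cells and 0% for each of the other 3. A call in monocyte-like cells and none in macrophage-like cells is therefore no shown difference between them.

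**Figure D4:**
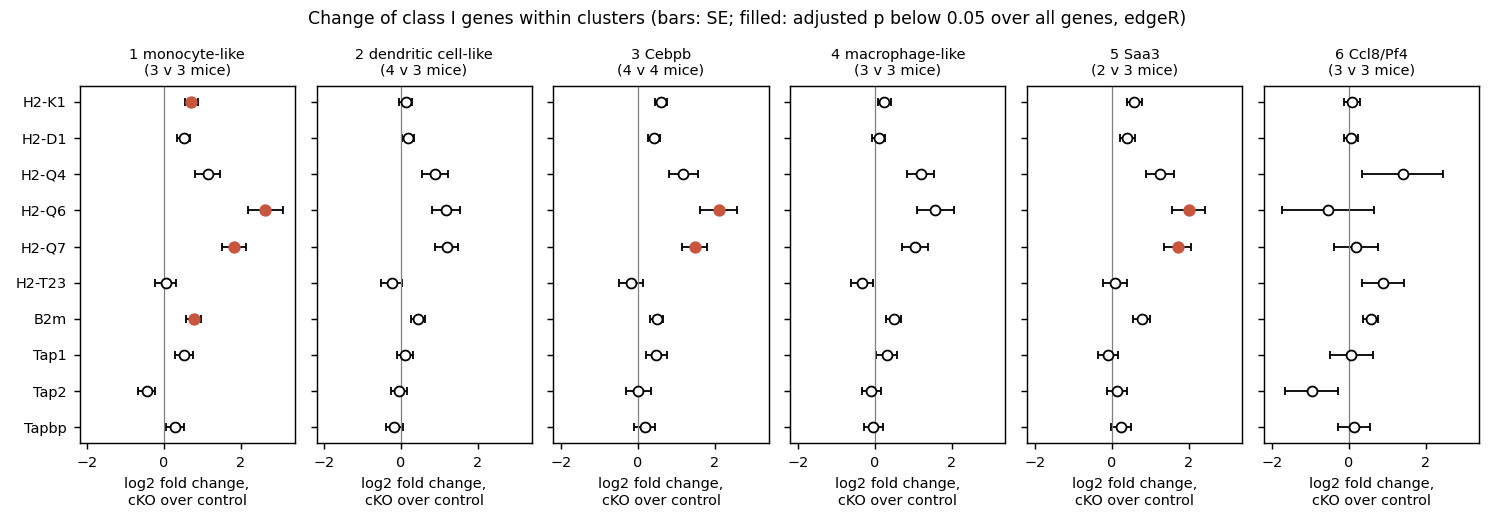
log2 fold change of each class I gene, cKO over control, in the 6 clusters tested, with bars of 1 SE and the number of control and cKO mice above each panel. Filled points passed the edgeR test over all genes, and they are H2-K1, H2-Q6, H2-Q7 and B2m in monocyte-like cells and H2-Q6 and H2-Q7 in the Cebpb and Saa3 clusters.

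Other genes of the pathway were followed in all sorted cells. Of 14 further class I and class I-like heavy chains tested, 3 were higher and 2 lower in cKO mice, with a median log2 fold change of 0.83. H2-T22, a nonclassical heavy chain that binds receptors of gamma delta T cells, rose 2.22-fold, from 78.4 ± 8.40 to 160 ± 17.9 CPM (SD, n = 4; adjusted p = 0.0024 by edgeR). H2-Q10 (2.65-fold) and H2-T24 (3.06-fold, from a level of 2.41 CPM) were the other 2 that rose. H2-M3, which presents formylated peptides, was at 75.2 ± 12.99 and 81.5 ± 7.997 CPM (log2 fold change 0.21, adjusted p = 0.502). The 2 that fell do not present peptides: Fcgrt, the neonatal Fc receptor chain, went from 142 ± 32.4 to 63.3 ± 25.2 CPM and Hfe, a regulator of iron uptake, from 147 ± 22.6 to 67.8 ± 17.9 CPM (adjusted p = 0.0248 and 0.0137 by edgeR). Both pair with beta-2 microglobulin. The H2-T22 call held without any 1 mouse. That of H2-T24 was lost without control replicate 1 or 2 or cKO replicate 6, 7 or 8 (largest adjusted p = 0.0897), that of H2-Q10 without control replicate 1 or 2 or cKO replicate 5, 7 or 8 (0.114), that of Fcgrt without control replicate 1 or 2 or cKO replicate 6, 7 or 8 (0.0894) and that of Hfe without control replicate 1 (0.0544). In clusters 1, 3, 4, 5 and 6 alone Hfe and H2-T24 had log2 fold changes of -0.87 and 1.28 and were not called (adjusted p = 0.0668 and 0.101 by edgeR), and without doublets H2-T24 and Fcgrt were not called (0.0849 and 0.0645).

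Of 15 genes of peptide supply and loading beyond the 10, none was called by edgeR, with a median log2 fold change of 0.03. The immunoproteasome subunits Psmb8 and Psmb9 had log2 fold changes of -0.07 and -0.27 (adjusted p = 0.826 and 0.319), and Psmb10 had 0.51 (165 ± 26.7 and 219 ± 35.5 CPM, adjusted p = 0.119). In clusters 1, 3, 4, 5 and 6 alone Psmb8 and Psmb9 turned to 0.36 and 0.34 (adjusted p = 0.247 and 0.271 by edgeR). The constitutive counterparts Psmb5, Psmb6 and Psmb7 had a median of 0.15, with none called. Among transcription factors of class I genes, Nlrc5, the class I transactivator, rose 1.96-fold, from 7.72 ± 2.08 to 15.2 ± 1.58 CPM (adjusted p = 0.0376 by edgeR). Stat2 rose 1.80-fold and Irf9 1.59-fold, and Irf8, high in dendritic cells, fell to 0.54 of its control level. The Nlrc5 call was lost without control replicate 1 or 2 or cKO replicate 6, 7 or 8 (largest adjusted p = 0.123 by edgeR) and in clusters 1, 3, 4, 5 and 6 alone (log2 fold change 0.92, adjusted p = 0.109). That of Stat2 was lost without control replicate 1 or 2 or cKO replicate 7 or 8 (largest adjusted p = 0.0937), that of Irf9 without these or control replicate 3 (0.123), and that of Irf8 without control replicate 2 or cKO replicate 7 or 8 (0.0693). In clusters 1, 3, 4, 5 and 6 alone Irf8 had a log2 fold change of -0.39 (adjusted p = 0.246) and Irf9 of 0.67 (0.0506). Nlrc5 and Irf9 were not called without doublets (adjusted p = 0.0769 and 0.118 by edgeR), with library sizes only (0.0594 and 0.0627) or without both small mice (0.0583 and 0.0717).

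The class II genes and the interferon-stimulated genes stood on either side of these. Of 10 class II presentation genes, 8 fell and none rose, with a median log2 fold change of -0.82, among them H2-Oa (0.274-fold), H2-Ob (0.345-fold), the class II transactivator Ciita (0.508-fold) and H2-Eb1 (0.547-fold). The Ciita call was lost without control replicate 1 or 2 or cKO replicate 7 or 8 (largest adjusted p = 0.135), and that of H2-Ob without control replicate 2 (0.0501). In clusters 1, 3, 4, 5 and 6 alone, where dendritic cell-like cells are left out, H2-Oa, H2-Ob and Ciita had log2 fold changes of -1.28, -1.23 and -1.02 and were not called (adjusted p = 0.113, 0.147 and 0.092 by edgeR), and Ciita was not called without doublets (0.0637). The dendritic cell markers fell in the same mice, a part in this result that was not tested, and within monocyte-like cells 7 of the 10 were called lower. Of 19 interferon-stimulated genes, 15 rose and none fell, with a median of 1.83. Ifi44 rose 20.2-fold, Irf7 7.82-fold, Isg15 6.30-fold and Oasl2 5.84-fold. In the 6 clusters in order, 8, 5, 10, 8, 8 and 2 of the 19 were called higher. Of 8 tested receptors that bind class I molecules, Klra2 rose 1.85-fold and Klrd1 fell to 0.300 of its control level, and Klrd1, like H2-Oa, was itself among the 10 leading genes of the dendritic cell-like cluster. The Klra2 call was lost without control replicate 1 or 2 or cKO replicate 7 or 8 (largest adjusted p = 0.0695) and in clusters 1, 3, 4, 5 and 6 alone (log2 fold change 0.30, adjusted p = 0.38), and it was not called without doublets (0.0578).

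**Figure D5:**
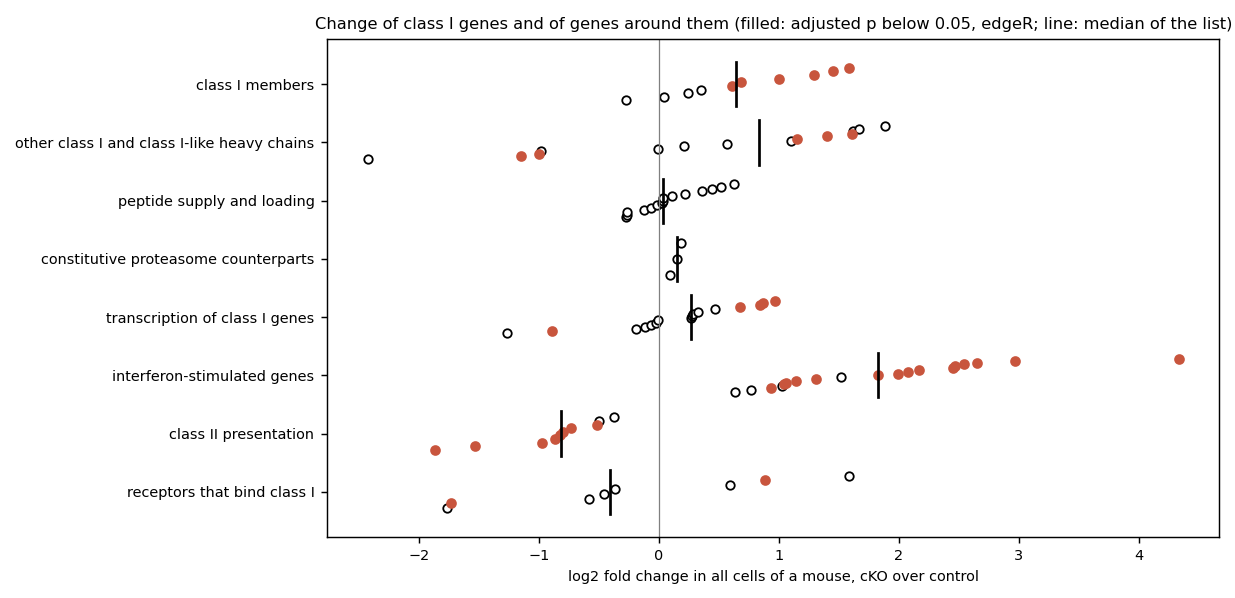
log2 fold change of single genes, cKO over control, in all sorted cells, by list, with a line at the median of each list and filled points for genes that passed the edgeR test. The median is 0.65 for the 10 class I genes, 1.83 for the interferon-stimulated genes, -0.82 for class II presentation and 0.03 for peptide supply and loading.

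The genes most like each class I gene were read from the Pearson correlation of log2 CPM over the 38 sums of a mouse and a cluster, which share depth, mouse and cluster and get no test. H2-Q6 and H2-Q7 were most like each other (r = 0.81), followed by H2-Q10 (0.74) for H2-Q6 and Slfn4 (0.81) for H2-Q7. B2m was most like Sat1 (0.87) and Rtp4 (0.85), H2-K1 like Spon1 (0.79) and H3f3b (0.78) and H2-D1 like Tmbim6 (0.83) and Shisa5 (0.83). H2-Q4 was most like Gm5424 (0.84) and Ass1 (0.84), and H2-T23 like Eif1a (0.77) and Sgk3 (0.76). The loading genes had yet other partners: Acot7 (0.91) and S100a11 (0.87) for Tap1, Twf2 (0.86) and Rtca (0.84) for Tap2, and Atg4a-ps (0.84) and Rmnd5b (0.81) for Tapbp. Among the 10 genes the lowest correlation was that of B2m with Tap2 (-0.42).

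Class I genes share sequence, so a read can match more than 1 of them. Of all windows of 58 bases, the read length, in the last 500 bases of their transcripts (GENCODE M21), 38.7% for H2-Q6 also occurred in another gene, 23.5% in H2-Q7. The share was 31.4% for H2-T23, 25.96% for H2-Q4, 10.2% for H2-Q7, 5.44% for H2-K1, 4.38% for H2-D1, 3.37% for Tapbp, 1.91% for Tap1 and 0% for B2m and Tap2. The Cell Ranger summaries of the study define the reads used for UMI counts as those matching a unique gene. Reads from shared windows may therefore be missing from the counts, most of all for H2-Q6, H2-T23 and H2-Q4. How many were left out cannot be seen in the counts.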

How the data were processed

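Single-cell UMI counts of 3′ transcript ends (Chromium v2 kit) from colonic lamina propria cells were deposited by the authors as a count table of genes by cell barcodes, made with Cell Ranger on mm10. The submitters' processing notes also name STAR 2.5.3a and R 3.5.0. The counts are raw, and 0 columns had no sample. Cells with log10 UMIs of at least 2.8, log10 genes of at least 2.6, at most 5% mitochondrial UMIs and no hemoglobin UMI were kept (497531 to 3762314 UMIs per mouse), and cells called doublets by Scrublet were kept in the main comparisons. CPM are UMIs per 1000000. Clusters were formed with scran 1.30.0 (pools of at least 50 cells, 8 principal components, Ward, 9 clusters), leaving out the class I genes and all other listed genes (283 in all).

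Each mouse gave 1 sum of counts, plus 1 for every cluster in which it had 20 cells or more, and sums were tested with edgeR 4.0.16 (R 4.3.3; TMM, quasi-likelihood) over genes with a CPM above 1 in at least 3 sums and a UMI in at least 20 cells, with Benjamini-Hochberg adjustment at 0.05. The fit over clusters holds several sums of a mouse, which are not independent. DESeq2 1.42.0, limma 3.58.1 (voom, mice as random effects), other scalings, filters and clusterings, and leaving out each mouse were alternatives. The edgeR scripts were tested on simulated data: over all cells 50% of 2-fold and 100% of 4-fold rises were recovered (11387 genes), and 5.42% of the calls were false. The simulation gave all genes the same spread, drew the sums independently and changed only genes with a mean of at least 20 counts. These shares therefore do not measure the power for the class I genes. Poisson intervals cover counting error only.

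The 10 genes and all lists were chosen with earlier results of these data known. Genes named beside the 10 are Slc3a2, up to 4 called genes per list with the largest changes, Nlrc5, Psmb8, Psmb9, Psmb10, H2-T22 and H2-M3, and the 2 most correlated genes of each class I gene. Hfe and Irf9 were named after their values were seen. Clusters 3, 5, 6 and 7 were left unnamed, and the sums without dendritic cell-like, stromal-like and lymphoid-like cells also left out cluster 7, which is led by T cell genes. For the list of transcription factors, 1 result is not reported here, and so no count over that list is given.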

Additional observations from a re-analysis of the deposited data

Results flagged for a closer look

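Of 50 groups of 4 mice, 5 had a mouse that stood apart from the other 3 by the 95% limit of Dixon's test, which chance gives in about 1 of 20 groups. H2-D1 over all cells was 1942 CPM in control replicate 3, against 2509 to 2591 CPM in the other control mice. In the dendritic cell-like cluster the same mouse was again the lowest for H2-D1, with 1682 CPM against 2014 to 2060 CPM. H2-Q6 over all cells was 114.6 CPM in cKO replicate 5, against 91.3 to 93.7 CPM in the other cKO mice. In the Cebpb cluster H2-Q4 was 238 CPM in cKO replicate 5, against 112 to 131 CPM. Tap2 in the same cluster was 74.25 CPM in control replicate 2, against 58.1 to 60.7 CPM. Control replicate 3 and cKO replicate 5 are the mice with 85 and 83 cells.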

How the results depend on the processing

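No paired analysis was possible because control and cKO mice share no replicate numbers. Over all cells, 510 genes were called, 787 without a filter on low counts, 332 in clusters 1, 3, 4, 5 and 6 alone, and 145 to 712 when a mouse was left out. Of the 10 class I genes 6 were called, 4 in those clusters alone and 3 to 6 when a mouse was left out. Genes called fell to 145 without control replicate 2, 166 without control replicate 1, 187 without cKO replicate 7 and 267 without cKO replicate 8. H2-Q6, H2-Q7 and B2m were called in all 15 alternatives over all cells, H2-K1 and H2-Q4 in 12 and H2-D1 in 7. Tap1 turned from 0.04 to -0.058 on the log2 scale with library sizes only, and ranged from -0.03 to 0.12 when a mouse was left out. Its highest value over the 15 alternatives was 0.339. In those clusters alone Psmb8 and Psmb9 turned to 0.36 and 0.34, and Psmb8 ranged from -0.13 to 0 when a mouse was left out. Within clusters, 8 pairs of a class I gene and a cluster and 413 genes were called. DESeq2 called 18 pairs and 583 genes, limma-voom 15 pairs and 584 genes, and fitting each cluster alone 12 pairs and 568 genes. Without a filter 14 pairs and 915 genes were called, and with 12 clusters 5 pairs and 229 genes. Clustering on all genes gave 194 genes and a log2 fold change of H2-D1 in the Cebpb cluster of -0.055, and graph clustering 260 genes. Leaving out a mouse gave 2 to 11 pairs and 218 to 487 genes, with 2 pairs without control replicate 1 and 3 without cKO replicate 7. Of differences between clusters, 7 genes were called, 15 with limma-voom, 1 with clustering on all genes and 0 to 8 when a mouse was left out, and 0 class I genes under each of these. On simulated counts, 6% of 2-fold rises in the difference of cluster 1 minus cluster 4 were recovered, and 6.67% of the calls were false. Under the settings of that simulation a difference of that size would mostly be missed. Its spread was not taken from these data, so the share does not measure the power for the class I genes. The cause of these changes was not tested.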
